A study of Mus musculus with 6 samples.

Results

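Large intergenic noncoding RNAs (lincRNAs) are long transcripts from stretches between protein-coding genes that are not translated into a known protein. The array that was used here carries a set of lincRNA probes, each 60 bases long and named by a genome interval and a strand, with F for the forward and R for the reverse strand. The probes described below are all non-control probes whose description marks them as lincRNA and whose name is such an interval with a strand letter. There were 16181 of them among 55681 distinct probes, under 4607 names that cover 3540 intervals, of which 1067 were probed on both strands. A further 70 probes with a lincRNA description were left out, 57 because they carry a gene name such as TUG1 and 13 because their interval has no strand letter.

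The samples were spleens of mice of the congenic strain B10.BALB-16.C2A, with RNA of 3 mice pooled for each of 6 arrays. Unirradiated mice (0 cGy, called resting in the labels) gave 3 arrays, and mice taken 24 h after 900 cGy of total body irradiation with X-rays gave 3. No genotype, age or other treatment is used here, and the groups differ by the dose alone according to the labels. The design sets irradiated against unirradiated spleens and so shows which lincRNA signals changed within a day of a high dose.

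Transcripts of this class lie in the nucleus or the cytoplasm, and many are made at low levels and in few cell types. Some act on the genes next to them or on chromatin, and for most no function is known. After DNA damage the transcription factor p53 switches on noncoding as well as coding genes, and the best described of these in the mouse is Trp53cor1, printed on the array as lincP21, which is transcribed away from the cell cycle inhibitor gene Cdkn1a. The spleen holds B and T cells, macrophages and, in the mouse, dividing red cell precursors, so that a transcript confined to one cell type follows the number of those cells. In bulk RNA, fewer cells of a type and less RNA per cell cannot be told apart.

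The 60 bases of the probes on which the results turn are given first, 5′ to 3′ and as read from the scanner files, because the name of an interval says little about what was measured. Capitals mark AATAAA, the usual signal for polyadenylation, where a probe holds it. Positions are on mm9. The first 3 are probes of chr17:29183003-29217681_R, on the reverse strand upstream of Cdkn1a. They are the first, the second and the last of 4 adjacent probes and include the largest and the smallest increase of that interval.
chr17:29207178-29207237, reverse: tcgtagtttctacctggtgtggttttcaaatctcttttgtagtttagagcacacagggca
chr17:29207238-29207297, reverse: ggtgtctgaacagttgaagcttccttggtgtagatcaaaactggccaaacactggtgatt
chr17:29207358-29207417, reverse: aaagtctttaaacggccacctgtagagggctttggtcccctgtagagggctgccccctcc

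The next 3 lie side by side on the forward strand downstream of Myc, where the first did not pass the threshold and both others did.
chr15:61870769-61870828, forward: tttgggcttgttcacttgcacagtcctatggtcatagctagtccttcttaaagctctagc
chr15:61870830-61870889, forward: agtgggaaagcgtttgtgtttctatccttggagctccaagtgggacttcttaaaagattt
chr15:61870890-61870949, forward: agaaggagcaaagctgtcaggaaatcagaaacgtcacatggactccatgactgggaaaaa

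The following 3 show both strands of 1 place on chromosome 8, where the forward probe lies across the junction of 2 reverse probes.
chr8:26214545-26214604, reverse: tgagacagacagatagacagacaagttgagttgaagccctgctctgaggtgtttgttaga
chr8:26214605-26214664, reverse: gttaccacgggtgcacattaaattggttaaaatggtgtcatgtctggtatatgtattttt
chr8:26214583-26214642, forward: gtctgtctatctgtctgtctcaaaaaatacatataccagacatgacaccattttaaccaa

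The last 5 are a probe of an interval on chromosome 4 whose probes all rose and probes of 4 intervals with large decreases.
chr4:149445831-149445890, forward: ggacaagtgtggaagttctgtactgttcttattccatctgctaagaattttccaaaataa
chr12:32781502-32781561, reverse: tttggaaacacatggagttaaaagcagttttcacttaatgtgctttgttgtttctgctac
chr11:95657315-95657374, reverse: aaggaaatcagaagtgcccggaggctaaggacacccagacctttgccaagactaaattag
chr4:119923883-119923942, reverse: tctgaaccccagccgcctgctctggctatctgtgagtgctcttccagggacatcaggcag
chr1:88187643-88187702, reverse: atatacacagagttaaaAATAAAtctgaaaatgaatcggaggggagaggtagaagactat

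The word intergenic did not hold for every name. Only probes of genes on the array were looked for, so a name without one inside can still lie in a gene. Probes of RefSeq genes lay inside the interval of 845 of the 4607 names (18.3%), and 370 names (8.03%) held a probe of a protein-coding gene, 218 of them on the strand of the lincRNA. Intervals ran from 62 to 7128487 bases, with a median of 10676, and 5 names had an interval over 500 kb. All 16063 probes with a mapped position lay inside the interval of their name, and 118 had no position in the files. A name had 1 to 10 probes with a median of 3. No sequence occurred more than once among these probes, but 76 of them had exactly the sequence of a gene probe elsewhere on the array.

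Of the 20 genes listed as marking the spleen, 19 had a probe, and all 19 were well above background on all 6 arrays. Each array had between 70.1% and 74.1% of all its probes well above background, and none had a saturated spot. Precision is limited by there being 6 arrays. Exocrine and islet pancreas genes, which belong to an organ next to the spleen, were listed as well. The summed level of the 26 pancreas markers with a probe ran from 1.87 to 8.03 without irradiation and from 11.0 to 11.4 after it (log2 over the array's 75th percentile). Of the 26, 22 were higher and none lower after irradiation, compared with 26.4% and 31.0% of all tested probes. Gcg, which encodes glucagon, stayed near background on each unirradiated array, and each of the 26 was well above it on all 3 irradiated arrays. On unirradiated replicate 3 the summed level of 44 DNA replication and mitosis genes was 8.19, against 9.54 and 9.29 on replicates 1 and 2. That of 32 erythroid genes was 9.95 there, against 10.7 on both others. All 6 arrays lay on 1 slide, with the unirradiated arrays and irradiated replicate 1 in its first row and irradiated replicates 2 and 3 in its second. The labels give pools of mice as replicates, so the p-values measure the spread between pools.

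LincRNA probes were detected less often than the other probes on every array. Between 58.6% and 65.5% of them were well above the local background on an array, compared with 74.8% to 77.7% of the other 39500 probes. On all 6 arrays 8511 (52.6%) were detected, against 70.7% of the other probes, and 4730 (29.2%) were detected on no array, against 18.6%. Among unirradiated arrays replicate 3 had the highest share, and irradiated replicate 1 had the lowest of all. Detection in 1 group alone was rare. On all 3 unirradiated and no irradiated arrays 204 probes (1.26%) were found, against 0.813% of the other probes. On all 3 irradiated and no unirradiated arrays there were 64 (0.396%), against 0.691%. Of the 1067 intervals with probes on both strands, 743 had a probe of each strand detected on all 6 arrays, 270 of 1 strand and 54 of neither.

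**Figure D1:**
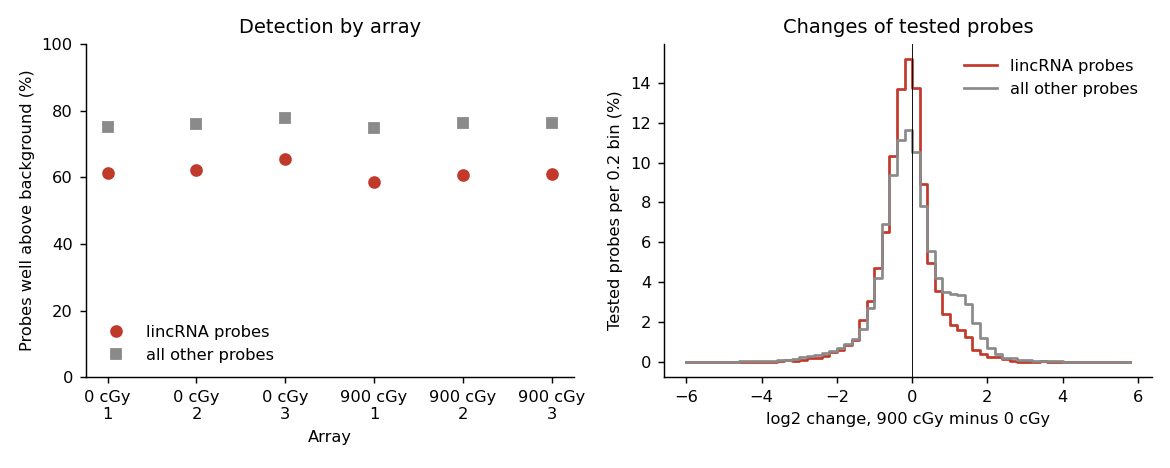
Left, the share of lincRNA probes (circles) and of all other probes (squares) well above background on each array, in percent. Right, the share of tested probes in each bin of log2 change, 900 cGy minus 0 cGy. The circles lie between 58.6% and 65.5% on all 6 arrays and below the squares on each, and the lincRNA curve has fewer probes than the other curve on the side of increases. A few of the other probes lie beyond the axis.

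A smaller share of lincRNA probes than of all probes passed the test in either direction. A probe was tested where all 3 arrays of at least 1 group were well above background, which held for 9764 lincRNA probes under 3827 names. After irradiation 1627 of them (16.7%) were higher and 2729 (27.9%) lower with limma and a threshold of 0.05 on p-values adjusted over 39696 probes, whereas over all tested probes 26.4% were higher and 31.0% lower. The settings that follow give counts of lincRNA probes alone, without a share over all probes beside them. With spike-in scaling, which moved the median change of all probes from -0.07 to -0.34 on the log2 scale, 910 were higher and 4037 lower. With the pancreas level as a covariate 747 were higher and 732 lower. That level ran from 1.87 to 8.03 on unirradiated and from 11.0 to 11.4 on irradiated arrays, so it largely goes with the dose. The covariate therefore costs precision, and a call lost with it, here or below, cannot tell pancreas RNA from lost precision. Of the probes called at first, 681 in each direction stayed called with the covariate. The median change was 0.83 in place of 0.84 for the higher and -0.76 in place of -0.77 for the lower ones. In the first slide row alone, where irradiated replicate 1 is assumed to vary like the other arrays, 775 were higher and 1585 lower.

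Large changes were few. At least 2-fold higher were 642 probes (6.58%, against 13.0% of all probes), and at least 2-fold lower were 869 (8.90%, against 9.45%). The median change of the lincRNA probes was -0.12 and that of all probes -0.07. Among those well above background on all 6 arrays, 1387 of 8511 were higher and 2326 lower, where the same over all probes was 26.2% and 31.1%. The 3 irradiated arrays lay on 1 side of the unirradiated ones for 51.8% of the lincRNA probes, compared with 65.7% of all probes. The difference between lincRNA and other probes was not tested. Of the reverse-strand probes 856 of 5019 were higher and 1549 lower, and of the forward-strand probes 771 of 4745 and 1180.

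The part of pancreas RNA in the increases was not tested. Of the 599 lincRNA probes that were well above background everywhere and at least 2-fold lower, 80 lay on unirradiated replicate 3 by 1 or more below the mean of replicates 1 and 2.

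The strongest increase was in the stretch between Srsf3, a splicing factor gene, and Cdkn1a, which encodes the cyclin-dependent kinase inhibitor that stops the cell cycle. RefSeq's gene order places Trp53cor1 there. All 5 reverse-strand probes of chr17:29183003-29217681_R were higher. Its probe at chr17:29207178-29207237, first in the list of sequences above, stood at -3.55, -3.50 and -3.29 on the unirradiated arrays and at 1.29, 1.16 and 1.40 on the irradiated ones (log2 over the 75th percentile). The groups lay far apart, and each varied little. The log2 change was 4.73 ± 0.11 SE, or 26.5-fold (limma adjusted p = 3.91e-05). The adjacent probe changed by 4.69 ± 0.09, or 25.9-fold (limma adjusted p = 2.39e-05). The next 2 probes along the chromosome changed by 2.25 and 2.13. A probe before the first did not clear background without irradiation and was at least 5.38-fold higher with it. The forward strand of the same interval had 5 probes, of which 1 was tested, and it changed by 0.11 ± 0.21 (limma adjusted p = 0.679).

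Closer to Srsf3, the overlapping interval chr17:29192453-29216073_R had 2 probes, with changes of 1.57 and 2.69. The one with the smaller change stood at -3.19, -3.26 and -3.39 without and at -1.75, -1.64 and -1.74 with irradiation. Between the probes of these intervals lie those that the array names lincP21, which are not counted among the 16181. Of 5, 3 were higher, with fitted changes of 3.63, 1.71 and 1.68, of which the first and the last are of probes that did not clear background without irradiation. A further 1 changed by 0.26 without passing (limma adjusted p = 0.114) and 1 was not tested. The flanking coding genes went opposite ways. Cdkn1a changed by 4.61, whereas Srsf3 went from 3.62 ± 0.16 to 2.62 ± 0.04 (SD, n = 3 pools each, limma adjusted p = 0.000392). The lincRNA probe at chr17:29207178-29207237 minus Srsf3, taken array by array, differed by 5.73 ± 0.19 SE between the groups (limma adjusted p = 1.93e-05).

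**Figure D2:**
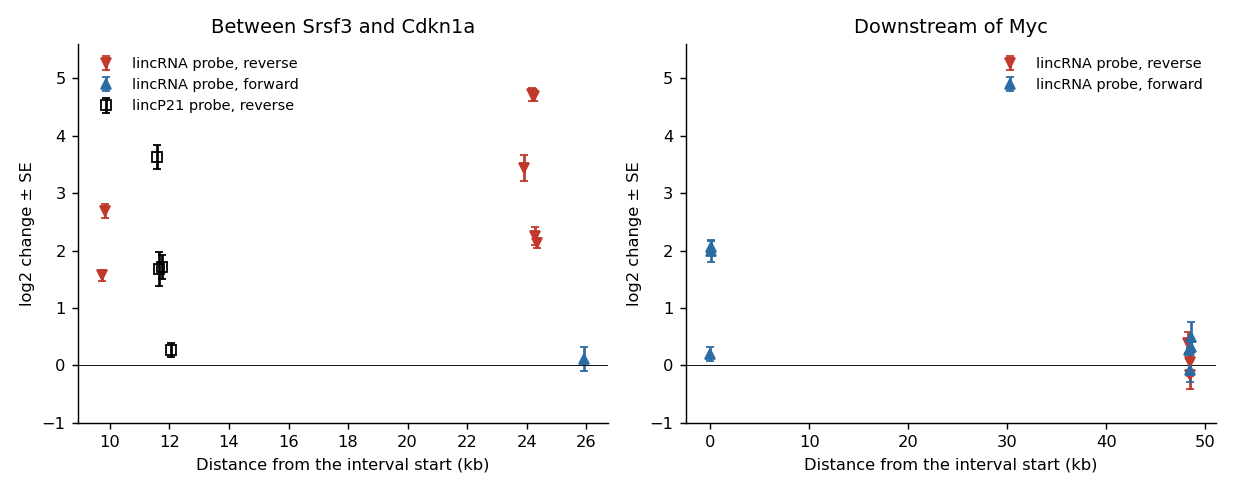
The log2 change with its SE (3 arrays a group) of tested probes along the interval between Srsf3 and Cdkn1a (left) and downstream of Myc (right), against the distance from the start of chr17:29183003-29217681_R and of chr15:61870759-61938796_F. Upward triangles are forward-strand and downward triangles reverse-strand lincRNA probes, and squares are probes named lincP21. On the left all 7 reverse-strand lincRNA probes lie at 1.57 or above and the forward one at 0.11, and on the right 2 of the 10 probes lie near 2.

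Another pronounced increase was measured on chromosome 4. The interval chr4:149445201-149445902_F had 3 probes, and all were higher, by 3.27, 3.53 and 3.58. The last, whose sequence is above, stood at -1.22, -1.02 and -0.77 without and at 2.55, 2.52 and 2.64 with irradiation (11.9-fold, limma adjusted p = 5.63e-05). The nearest gene with a tested probe was Gpr157, a G protein-coupled receptor gene 33.8 kb away, at -0.32 (limma adjusted p = 0.108). The difference from it was 3.90 ± 0.22.

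In chr10:39666719-39679959_R all 3 probes were higher, by 2.40, 2.59 and 2.74. The interval overlaps Mfsd4b3-ps, a pseudogene on the same strand, which changed by 1.42. The probe at 2.40 stood at -5.77, -5.48 and -5.08 and then at -3.15, -3.02 and -2.97, so that the groups did not overlap. It differed from the pseudogene by 0.98 ± 0.19 (limma adjusted p = 0.00657).

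Several overlapping intervals on chromosome 1 lie over Ifi207, one of a cluster of interferon-inducible genes on the same strand. In chr1:175660642-175671878_R all 3 probes were higher, between 1.48 and 2.61. The names chr1:175653557-175671940_R and chr1:175654606-175672031_R added 3 of 3 and 5 of 5 higher probes. A probe of the former, which has the position of the Ifi207 probe itself, went from 1.97 ± 0.11 to 4.35 ± 0.12 (SD, n = 3 pools each), a change of 2.38, and Ifi207 changed by 2.42. These intervals are covered by a gene on their own strand.

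With the brightest probe taken for each name and chromosome 18 left out, 8 increases among probes detected on all 6 arrays were singled out by size. The name chr17:29183003-29217681_R, whose brightest probe changed by 2.25, is not among them. Of the 8, 5 have not been described yet. A forward probe of chr8:80581177-80621652 stood at -4.03, -3.72 and -3.97 and rose to -1.21, -1.50 and -0.73, a change of 2.76. The forward probe of chr3:117935228-118089771 changed by 2.55 and that of chr9:89167172-89168980 by 2.39. Neither had a tested gene within 50 kb. The chromosome 9 probe stood at 1.34, 1.06 and 1.38 before and at 3.76, 3.57 and 3.62 after. In chr9:56910620-56919495_F, 628 bases from the tyrosine phosphatase gene Ptpn9, a probe changed by 2.45 while Ptpn9 changed by 0.35. In chr4:128207615-128242898_F a probe changed by 2.35, and the zinc finger gene Zscan20, 17.9 kb away, by -0.72.

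Of the higher probes, 64 did not clear background in the unirradiated group, so that only a lower bound of the fold can be given. These are all of the 64 probes detected on every irradiated and no unirradiated array. They were tested only because the irradiated group was bright, which favours a call, so their calls are no separate support. For the bound, the mean of the brighter group was set against the dim group, whose arrays each entered with the probe's own signal or with the weakest signal that cleared background, whichever was greater. The probe of chr15:79795261-79796945_R was at least 8.06-fold higher, that of chr13:66381200-66410200_R at least 7.85-fold, that of chr2:136327645-136341251_F at least 7.03-fold and that of chr7:67119535-67120213_R at least 3.38-fold. With the pancreas level as a covariate the calls of the first and the last were lost, at fitted changes of 2.50 in place of 3.01 and 0.46 in place of 2.06 (limma adjusted p = 0.127 and 0.564). That of the last was also lost in the first slide row alone, at 1.56 (0.128). The last lies 12.1 kb from Snrpn, an imprinted gene of the splicing machinery, which changed by 1.67. In chr2:136327645-136341251_F, which overlaps the tested gene Ankef1, the probe changed by 2.81 and Ankef1 on the same strand by -0.99. The other tested probe of this name, singled out after its value was seen, did not clear background without irradiation either and was at least 9.83-fold higher.

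**Figure D3:**
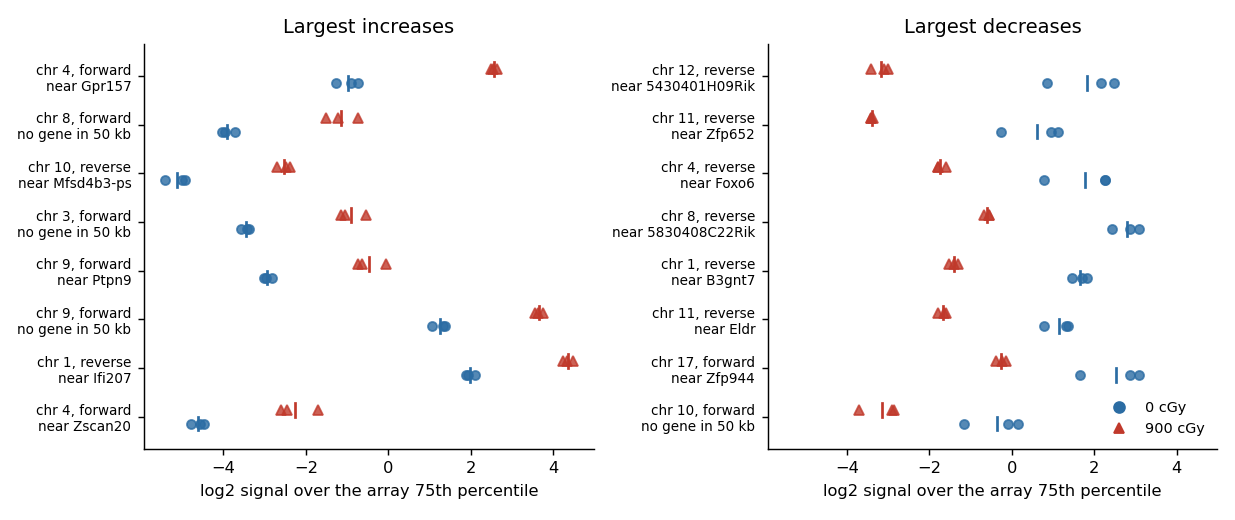
The level on each array (log2 over the array's 75th percentile) of 8 lincRNA names with large increases (left) and 8 with large decreases (right). They have the largest changes among probes well above background on all 6 arrays, outside chromosome 18 and with the brightest probe of each name. The name chr17:29183003-29217681_R is not shown, since its brightest probe changed by 2.25. Circles are 0 cGy, triangles 900 cGy and bars the means of 3 arrays. Names are given by chromosome, strand and the nearest gene within 50 kb. The groups do not overlap in any of the 16 names, which the choice by size of a called change favours. Over all tested probes 65.7% did not overlap. Among the decreases the lowest circle of chr12:32781477-32808567_R, at 0.84, lies apart from 2.47 and 2.15.

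The largest decrease was in chr12:32781477-32808567_R. All 3 probes fell, by -5.20, -5.10 and -4.99. The probe printed above, at the 3′ edge of the interval, stood at 1.59, 1.48 and 0.07 without and at -4.12, -3.93 and -4.40 with irradiation, a 36.7-fold change (SE 0.41 on the log2 scale, limma adjusted p = 0.000146). The RefSeq noncoding gene 5430401H09Rik lies in this interval on the same strand, with a probe shifted by a few bases, and it changed by -4.89. The difference between both was -0.31 and did not pass (limma adjusted p = 0.0951). Unirradiated replicate 3 lay 1.47 below the mean of the others.

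The probe of chr11:95657291-95657772_R stood at 1.13, 0.94 and -0.26 and then at -3.41, -3.37 and -3.42. It fell 16.0-fold (limma adjusted p = 0.000204). A longer name over the same place, chr11:95644899-95658549_R, had 5 tested probes of 8, of which 4 were lower, down to -4.30, and 1 changed by 0.41 without passing. Zfp652, a zinc finger gene 23.6 kb away on the other strand, changed by -0.18 (limma adjusted p = 0.127), so the difference was -3.83 ± 0.37.

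The probe of chr4:119923882-119924244_R fell 11.3-fold, from 2.26, 2.27 and 0.77 to -1.81, -1.61 and -1.80. Its neighbour Foxo6, a forkhead transcription factor gene 15.4 kb away on the same strand, rose by 1.61. The difference of -5.11 ± 0.49 (limma adjusted p = 0.000545) was the largest in this direction outside chromosome 18, again with 1 probe for each name. In these 3 intervals replicate 3 was the lowest unirradiated array, by between 1.30 and 1.49. The same held for chr17:22420025-22457650_F (change -2.80) and chr10:69819062-69871640_F (-2.79), whose replicate 3 lay 1.33 and 1.19 below the others. With the pancreas level as a covariate these last 2 changes were -2.43 and -2.46 and no longer passed (limma adjusted p = 0.0734 and 0.0849). It also held for the summed erythroid and replication genes above. The part of those cells in these decreases was not tested.

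A different order held in 3 other intervals. All 5 reverse-strand probes of chr8:26212577-26218527 fell, by between -2.69 and -3.62. One of them stood at 2.43, 2.87 and 3.09 and then at -0.55, -0.68 and -0.56, so that replicate 3 was the highest of the unirradiated arrays. All 3 probes of chr1:88187397-88187862_R fell, by -3.08, -3.26 and -3.38, and all 3 of chr1:138473514-138476054_R by -2.43, -2.59 and -2.87 in the fit. The largest of the former changes and all of the latter are of probes that did not clear background with irradiation, and their bounds were at least 10.4-fold and from 3.27-fold to 5.90-fold. One of the former stood at 1.46, 1.71 and 1.82 before and at -1.30, -1.42 and -1.53 after. Replicate 3 was the highest array here too. The summed B cell genes stood at 9.43, 9.61 and 9.75 on these arrays and the summed T cell genes at 7.61, 7.87 and 8.12, and their part was not tested. The interval on chromosome 1 at 88187397 lies 15.1 kb from B3gnt7, a glycosyltransferase gene that changed by -0.21, and the other one 48.5 kb from Zfp281 (0.23). In the latter interval the change of -2.43 was -2.49 with the pancreas covariate and no longer passed (limma adjusted p = 0.0756). The probe of chr11:16831925-16851121_R, in the RefSeq noncoding gene Eldr, fell by -2.82 and Eldr's own probe by -2.02.

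Of the lower probes, 185 did not clear background in the irradiated group. They are from the 204 probes detected on every unirradiated and no irradiated array. These were tested only because the unirradiated group was bright, which favours a call. The probe of chr6:134875724-134931975_R, over the noncoding gene Lockd beside Cdkn1b, was at least 10.3-fold lower. That of chr3:93150619-93184368_R was at least 7.07-fold lower, a probe of chr1:138473514-138476054_R at least 4.59-fold and that of chr2:80323450-80323802_R at least 4.57-fold. With the pancreas covariate the last 3 fitted changes were -3.51, -3.36 and -2.11, in place of -3.51, -2.59 and -2.46, and no longer passed (limma adjusted p = 0.0547, 0.0919 and 0.278). Nckap1, a regulator of actin 16.9 kb from the last, rose by 1.03. Lockd, on the forward strand, fell by -2.85. The forward name chr6:134879009-134880130 had 2 of 3 tested probes lower, down to -2.77, and chr6:134875724-134931975_F its only probe, at -2.70.

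Probes of 1 name did not always go together. Of 1687 names with at least 3 tested probes, 170 had all of them higher and 214 all of them lower, 385 had none called, 809 had some called in 1 direction and 109 had calls in both. The median range within a name was 0.57 on the log2 scale. An example is chr6:145936225-145965575_R, where 1 probe was higher by 2.14, 2 were lower, down to -2.12, and 1 did not pass. Downstream of Myc, the latter 2 of the 3 printed probes of chr15:61870759-61938796_F changed by 1.99 and 2.06, and the first, which starts 61 bases before them, by 0.20 (limma adjusted p = 0.19). The middle probe stood at -4.40, -3.78 and -4.18 and then at -2.36, -2.04 and -1.99. Pvt1, a noncoding gene downstream of Myc, is known from this neighbourhood. Myc itself, the growth-promoting transcription factor, changed by -2.16, a difference of 4.15 ± 0.21 (limma adjusted p = 9.23e-05). Of 7 probes of both strands further downstream, 1 was higher, at 0.32.

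The probe's own readout was repeatable where the same 60 bases were printed under a gene name. Among 59 such pairs with both tested, the changes had a correlation of 0.97 across pairs and a median absolute difference of 0.10, and 53 pairs had the same call. The largest difference was 0.61.

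How far a lincRNA followed the nearest gene differed with strand and, most clearly on the same strand, with distance. A tested gene lay within 50 kb of the interval for 7491 tested lincRNA probes, under 2779 names and next to 1250 genes. The lincRNA minus its neighbour differed between the groups for 1041 pairs upward (13.9%) and 1755 downward (23.4%). Distance and strand were those of the gene's probe nearest to the interval. The gene's change was that of its brightest probe, which can lie elsewhere, as at Cd247. Where the nearest probe lay inside the interval on the same strand, Pearson's r of the changes across 1200 pairs was 0.68. Of the called lincRNA probes there, 72.4% had a gene with the same call. Inside but on the opposite strand r was 0.35 over 865 pairs, with 57.6% of calls shared. From 1 base to 10 kb away r was 0.52 over 1601 pairs on the same strand and 0.09 over 1035 on the opposite one. Of calls, 61.6% and 47.9% were shared there. Over 10 kb and up to 50 kb r was 0.24 over 1465 and 0.17 over 1325 pairs, with 45.1% and 41.0% of calls shared. On the opposite strand Spearman's rho was 0.19 in both of these distance classes. Pairs share genes, arrays and, where probes of a name are counted singly, transcripts, so these are descriptions across sites. Without the 123 pairs in which the lincRNA probe overlaps a gene probe, r inside the interval on the same strand was 0.64 over 1077 pairs.

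**Figure D4:**
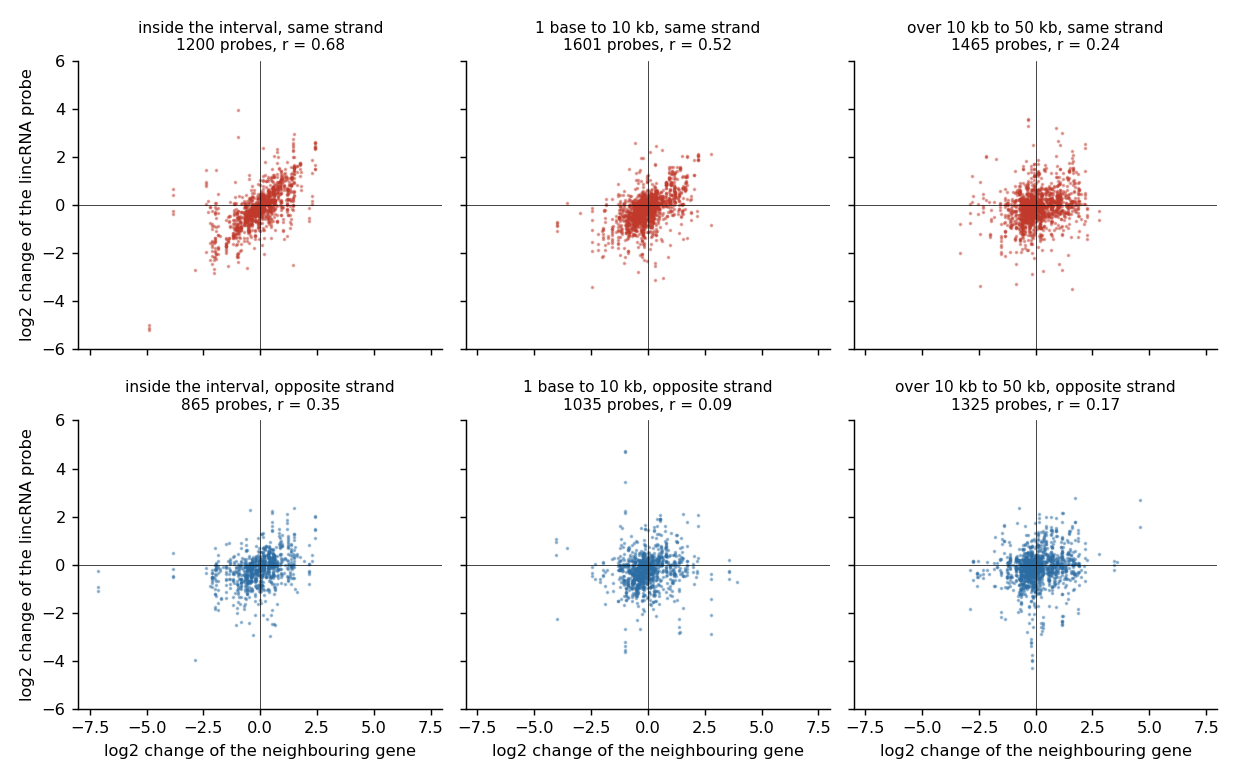
The log2 change of each tested lincRNA probe against that of its nearest gene within 50 kb, in 6 panels by distance from the interval and by strand. Distance and strand are those of the gene's nearest probe, and the gene's change is that of its brightest probe. Each point is 1 probe, and r is Pearson's correlation across probes. The cloud is tilted for genes inside the interval on the same strand (r = 0.68 over 1200 probes) and is close to round at 10 to 50 kb (r = 0.24 and 0.17).

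Opposite calls of a lincRNA probe and its neighbour were found in 452 pairs. In 5 of the 8 neighbour differences singled out by size, the lincRNA probe itself did not pass. Apol8, an apolipoprotein L gene that fell by -7.15, lies inside chr15:77575125-77585575 on the other strand from a forward probe that stood at -2.19, -2.56 and -2.89 and then at -2.85, -2.70 and -2.83. That change of -0.25 did not pass. The difference of 6.90 ± 0.36 (limma adjusted p = 9.23e-05) was the largest outside chromosome 18 with 1 probe taken for each name. A probe of chr13:21860993-21862345_F changed by 0.41 without passing (limma adjusted p = 0.19), 9.58 kb from the histone gene H1f5, which fell by -4.04. The probe of chr17:7025616-7033491_R changed by 0.67 without passing (limma adjusted p = 0.105) next to 4933426B08Rik, a noncoding gene at -3.56. In the other direction, a probe of chr8:28345511-28361105_F changed by -0.73 (limma adjusted p = 0.232) beside Adrb3, the beta-adrenergic receptor of fat cells, which rose by 3.90. With the pancreas covariate that probe changed by -2.46 and passed (0.0312), and without unirradiated replicate 1 it changed by -1.26 and passed as well. A probe of chr2:59235155-59242518_F changed by -0.22 without passing (limma adjusted p = 0.0826) beside the noncoding 5330411J11Rik at 3.47.

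The following counts of lincRNA probes next to listed genes stand beside 16.7% higher and 27.9% lower over all tested lincRNA probes. Counts of the listed genes themselves stand beside 26.4% higher and 31.0% lower over all tested probes. Of 40 p53 target genes with a probe, 24 were higher and 9 lower. Next to 3 of them lay 10 tested lincRNA probes, of which 2 were higher and 5 lower. Their median was -0.62, and both higher ones belong to chr17:29192453-29216073_R beside Cdkn1a. The 5 higher probes of chr17:29183003-29217681_R are not among the 10, since the edge of that interval lies nearer to Srsf3. A reverse probe of chr4:11102287-11118421, 1.05 kb from Trp53inp1, stood at -2.05, -2.12 and -2.65 and then at -3.50, -3.20 and -3.38. It fell by -1.09, and by -0.98 without passing when the pancreas covariate was added (limma adjusted p = 0.121), while Trp53inp1, which promotes p53-dependent cell death, rose by 1.36.

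Other lists gave few neighbours, whose counts again stand beside 16.7% higher and 27.9% lower over all tested lincRNA probes. Counts of the listed genes stand beside 26.4% higher and 31.0% lower over all tested probes. All 42 tested genes of DNA replication and mitosis were lower, and of 11 lincRNA probes next to 2 of them 1 was higher and 3 lower. Near Pcna, the sliding clamp of DNA polymerase (-1.30), the probes of chr2:132079092-132087069_F and chr2:132079092-132086642_F fell by -1.53 and -1.49, and the latter change was -1.14 with the pancreas covariate (limma adjusted p = 0.131). Of 28 T cell genes 26 were lower and 1 higher, and of 15 lincRNA probes, all at Cd247, which encodes the zeta chain of the T cell receptor, 12 were lower and none higher. Cd247 changed by -2.12, and these probes less, with a median of -0.67. A reverse probe of chr1:167797581-167803031 stood at -0.48, -0.54 and -0.36 and then at -1.01, -1.05 and -1.16, a change of -0.62 that was -0.58 with the pancreas covariate and no longer passed (limma adjusted p = 0.0862). Of 26 B cell genes 25 were lower, of 32 erythroid genes 29, and no tested lincRNA probe had one of these, or a pancreas marker, as its nearest gene.

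For the next 3 lists, counts of genes again stand beside 26.4% higher and 31.0% lower over all tested probes. Of 25 tested macrophage genes 24 were higher. Of 13 lincRNA probes next to 2 of them, 4 were higher and 5 lower (16.7% and 27.9% over all lincRNA probes). Beside Fcgr1, the high-affinity IgG receptor (2.78), probes of chr3:96074625-96086375 differed in direction. A reverse probe, on the strand of Fcgr1, rose from -3.85, -3.86 and -4.21 to -2.51, -1.42 and -1.60, whereas 4 of 5 forward probes fell, 1 of them by -1.43. The other tested reverse probe fell by -0.82. With the pancreas covariate the reverse probe changed by 2.15 in place of 2.13 and the forward one by -1.33, and neither passed (limma adjusted p = 0.0613 and 0.141). Of 32 interferon-responsive genes 29 were higher and 1 lower, with 2 of 13 neighbouring lincRNA probes higher and 1 lower. The higher ones lay in chr4:155564927-155571580_R and chr4:155560050-155570900_R, under 3 kb from Isg15 (1.13), and changed by 1.34 and 0.97. In the first slide row alone the changes were 1.37 and 0.75 and neither passed (limma adjusted p = 0.0551 and 0.0724). With the pancreas covariate they were 1.63 and 1.45, of which the former did not pass (0.0752). Of 19 spleen identity genes 11 were higher and 8 lower, with 3 of 15 neighbouring probes higher and 2 lower. Near Nkx2-5, a homeobox gene (1.36), probes of chr17:26997231-27023120_R and chr17:27012442-27024356_F changed by 1.14 and 1.02. The former was at 1.49 with the pancreas covariate and did not pass (limma adjusted p = 0.0618).

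Beside 26.4% higher and 31.0% lower over all tested probes, 9 of 26 tested named long noncoding RNA genes were higher and 9 lower. Next to 16 of them lay 192 lincRNA probes, of which 34 were higher and 78 lower, against 16.7% and 27.9% of all lincRNA probes. At Mir17hg, the host transcript of a growth-promoting microRNA cluster, a forward probe of chr14:115443612-115445950 and a reverse probe of chr14:115423660-115463160 fell by -1.84 and -1.89, and Mir17hg itself by -1.84. The forward probe stood at 1.78, 1.94 and 1.65 and then at -0.16, -0.04 and 0.04, and has the position of the Mir17hg probe. The probes with a lincRNA description and a gene name included 5 of TUG1, all lower by between -0.64 and -0.75, and 5 of NEAT1, which builds nuclear paraspeckles, all higher by between 0.41 and 0.54.

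The brightest probes of the 2 strands of an interval differed in their response in some intervals. They can lie at different places. Probes of 1 name, on 1 strand, also differed, with a median range of 0.57. How much of a difference goes with the strand was not tested. For 830 intervals the brightest tested probe of each strand could be compared, and the change of the forward probe exceeded that of the reverse one in 154 (18.6%) and fell short of it in 130 (15.7%). Both of these probes were higher in 33 intervals and lower in 87. They were called in opposite directions in 41, only 1 was called in 378 and neither in 291. The correlation of the changes across intervals was 0.20. In chr8:26212577-26218527 the reverse probe fell by -3.39, whereas the forward probe stood at -1.66, -1.77 and -1.81 and then at -1.88, -1.38 and -1.32 (change 0.22, limma adjusted p = 0.297). The difference was 3.61 ± 0.26 (limma adjusted p = 0.000217). The reverse probes at the same place, whose sequences are above, fell by -3.22 and -2.69. Of the other tested forward probes of this interval, 3 of 3 fell, down to -2.16.

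In chr9:31834945-32015745 the forward probe rose by 1.57 and the reverse probe fell by -2.78, a difference of 4.35 ± 0.43. With the pancreas covariate the reverse change was -2.45 and did not pass (limma adjusted p = 0.0987). The forward probe stood at -5.30, -5.13 and -5.19 and then at -3.76, -3.75 and -3.42, and all 3 tested forward probes were higher. The other tested reverse probe changed by 0.09 without passing (limma adjusted p = 0.691). The compared probes start at 31959537 (forward) and 31902098 (reverse), so they do not lie at 1 place. In chr6:145936225-145965575 the reverse probe rose from 0.80, 0.71 and 0.68 to 2.84, 2.85 and 2.92, although 2 other reverse probes of this name fell, as given above. The forward probe fell by -1.04, near the threshold (limma adjusted p = 0.0465). That forward call was lost under most alternatives, among them the first slide row alone, at -0.61 (0.397). In chr13:66381200-66410200 the forward probe changed by 0.03 and the reverse one, whose bound is given above, by 3.54 in the fit.

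**Figure D5:**
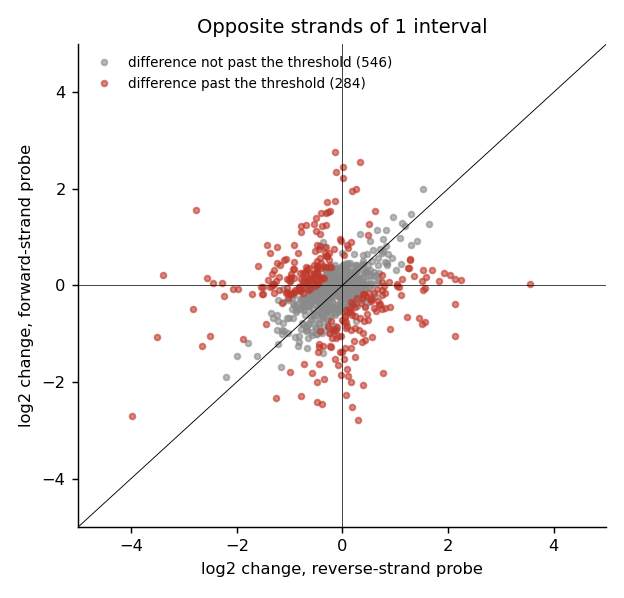
The log2 change of the brightest tested forward-strand probe against that of the reverse-strand probe, for 830 intervals probed on both strands. The line marks equal changes, and the darker red points are the 284 intervals whose difference passed the threshold. The cloud is close to round, with r = 0.20. Several intervals lie along the axes, where the probe of 1 strand changed and that of the other stayed near 0.

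Detection and calls varied with features of the probes that the choice of probes did not use. The share detected on all 6 arrays was 28.3% for probes under 35% GC and 74.5% for those at 55% or more. The share of tested probes that were higher was 17.8% under 35% GC. It fell from 21.8% at 35 to under 40% GC to 11.7% at 55% or more. The share that were lower fell as well, from 40.1% under 35% GC to 21.8% at 55% or more. Of probes within 300 bases of the 3′ edge of their interval 22.4% were higher and 25.6% lower, compared with between 12.4% and 16.2% higher further inside. AATAAA occurred on the probe strand of 634 of 16181 probes (3.92%) and on the other strand of 3.02%. It was in 4.24% of the higher, 3.96% of the lower and 3.37% of the uncalled probes. Which of these features matters was not tested.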

How the data were processed

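RNA of 6 spleen pools was measured on one-colour (Cy3) arrays. The deposited intensity values came from Agilent Feature Extraction 10.5.1.1, named in the submitters' processing notes. Per the file headers they are background-subtracted and not normalized between arrays, and weak spots carry a surrogate value, which leaves changes of dim probes uncertain. A table deposited by the authors gives log2 values centred on each probe's median. It followed the scanner values closely and served as an alternative. The medians of its columns were 0.047, -0.0059 and -0.046 (unirradiated) and -0.025, 0.018 and -0.0083 (irradiated).

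The log2 processed intensity of each array was reduced by that of its 75th percentile over non-control spots. Spots marked as outliers were left out. Where a probe lost an array in this way the fit used the others, which held for 1 tested lincRNA probe and none that is named. The unit was the distinct probe. Probes well above background on all 3 arrays of a group were tested with limma 3.58.1 in R 4.3.3 (lmFit and eBayes, two-sided), with Benjamini-Hochberg adjustment over 39696 probes and a threshold of 0.05. The same fit was run on per-array differences between a lincRNA probe and the brightest probe of the nearest gene within 50 kb, and between the brightest forward and reverse probe of an interval, each adjusted over its own pairs. The scripts were tested on simulated data. Positions are mm9 as in the files, and gene names and gene order come from RefSeq's GRCm38.p6 table, of which no coordinate was used.

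The members, the 10 gene lists and the rule for named items were chosen with earlier results of these data known. The rule left out chromosome 18 and took 1 probe a name, the brightest. In each direction it took the 8 largest changes among probes detected on all arrays and the 4 largest bounds. Also in each direction, it took the 4 names with at least 3 concordant probes and the 4 neighbour differences of largest size. The 4 largest strand differences and 2 probes next to each list completed it. The other probes of these names, of the stretches beside Cdkn1a, Lockd, Ifi207 and Myc and at chr11:95644899-95658549_R were added after their values were seen. Same-numbered arrays did not deviate together (correlations 0.07, 0.11 and -0.01), so the numbers were not taken as pairs.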

Additional observations from a re-analysis of the deposited data

How the results depend on the processing

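The shares below are of lincRNA probes alone. No share over all probes under the same setting stands beside them, so they do not show whether other probes moved as much. The share of lincRNA probes that were higher (16.7%) was 9.65% with no filter on dim probes, 9.32% with spike-in scaling and 10.8% with the slide row as a block. It was 7.94% in slide row 1 alone and 7.65% with the pancreas level as a covariate. The share lower (27.9%) was 15.1% with no filter, 16.2% in slide row 1 alone and 7.497% with the covariate. The median change (-0.12) was -0.035 with normexp, -0.025 with no filter, -0.39 with spike-in scaling and -0.24 both with the slide row block and in row 1 alone. The share of neighbour differences upward (13.9%) was 21.3% with normexp and 21.6% with quantile normalization added, and downward (23.4%) 14.1% with no filter. With no filter the strand differences fell from 18.6% to 11.8% and from 15.7% to 10.4%. The cause of these shifts was not tested. With no filter 16181 lincRNA probes were tested in place of 9764, of which 1561 were higher and 2449 lower, in place of 1627 and 2729. Leaving out 1 array at a time gave 13.3% to 17.1% higher and 21.9% to 29.1% lower probes, 9.97% to 13.2% and 18.04% to 23.5% of neighbour differences, and 12.5% to 16.6% and 10.8% to 16.1% of strand differences. Same-numbered arrays share only a number. With the replicate block 16.0% of probes were higher and 26.0% lower, 12.6% and 21.1% of neighbour differences passed, and 18.2% and 14.8% of strand differences.

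For named items, 1296 of 1352 values kept direction and side of the threshold, 35 lost the call, of which 18 under the covariate, 10 gained it and 11 changed sign. The probe of chr15:77575125-77585575_F (-0.25) was at 0.15 with the covariate. That of chr13:66381200-66410200_F (0.03) was at -0.24 with spike-in scaling and -0.33 both with the slide row block and in row 1 alone, and between -0.093 and 0.20 with 1 array left out. That of chr8:26212577-26218527_F (0.22) was at -0.055 with spike-in scaling and at -0.14 both with the row block and in row 1 alone. None of these 3 had passed the threshold. The neighbour difference of chr17:7025616-7033491_R was -0.012 among probes detected on all 6 arrays, where another gene is the nearest. Dim probes limit the rest: 29.2% of the lincRNA probes were detected on no array.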
